A study of Macaca mulatta with 12 samples.

Results

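The genes described here are the zinc-dependent proteases of the MMP, ADAM and ADAMTS families and the TIMP inhibitors, taken by symbol (MMP, TIMP, ADAM or ADAMTS followed by a number). They numbered 65 of the 16745 genes in the table: 22 MMP, 4 TIMP, 20 ADAM and 19 ADAMTS genes. A gene was tested where its deposited values averaged at least 1 above the table minimum of 3.00, the log2 value of a gene with 0 reads. This left 52 members (14 MMP, 4 TIMP, 15 ADAM and 19 ADAMTS genes) among 12084 genes tested. RNA came from rhesus macaque (Macaca mulatta) cells labelled as cardiomyocytes made from induced pluripotent stem cells. They were grown flat as a monolayer (2D) or as engineered heart tissue (EHT, 3D), a construct of cells in a matrix, all in RPMI medium with B27 supplement containing insulin. Each culture had 3 libraries from normoxia and 3 from hypoxia, the latter made with an anaerobic pouch for 24 hours and followed by fresh medium and 24 hours more. The labels do not say at which of these hours RNA was taken or whether normoxic cultures had their medium changed, so oxygen and the medium change cannot be told apart. Below, hypoxia names this whole treatment, and words such as raised, lowered or fell describe differences between the labelled groups of libraries. The stem cell line, the number of clones or animals behind it, the cells' age and the matrix of the EHT are not stated in the labels. Nothing says that the libraries of a group came from separate cultures, so p-values measure the spread between these libraries, which may be technical.

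MMPs are secreted or membrane-anchored enzymes that cut collagens, gelatin, proteoglycans and other matrix proteins, and most are made as inactive proenzymes. TIMPs are small secreted proteins that bind the active site of MMPs, and TIMP3 also blocks several ADAM and ADAMTS enzymes. ADAM proteins sit in the cell membrane and release the outer parts of growth factors, cytokine receptors and adhesion proteins, while ADAMTS enzymes are secreted and cut proteoglycans such as versican or trim procollagens. In the heart these families are known for turnover and scarring of the matrix, mostly studied in fibroblasts, cardiomyocytes and inflammatory cells. The values below are RNA levels and do not measure enzyme activity. No sequences of these genes were used here.

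Libraries held 4154346 to 11298841 reads. Levels are given as CPM, reads in every 1000000 after scaling the libraries by median-of-ratios factors, and differences are on the scale of log2(CPM + 0.5), which understates those of genes with few reads. Levels of different genes are not compared, because gene lengths were not used. The labelled cell type was checked against 12 cardiomyocyte markers. Their summed level was 385 to 2790 CPM in monolayer normoxia, 6869 to 7293 in monolayer hypoxia, 19.0 to 175 in EHT normoxia and 33.5 to 923 in EHT hypoxia, and 9 of the 12 were called lower in EHT in each oxygen condition. Summed levels of 10 fibroblast markers were 26343 to 54634 CPM in monolayer normoxia, 53043 to 59406 in monolayer hypoxia, 46617 to 63724 in EHT normoxia and 58366 to 72487 in EHT hypoxia. Summed levels of 10 epithelial markers were 1465 to 7398 CPM in monolayer normoxia and 767 to 883 in monolayer hypoxia. The third monolayer normoxia library had the 385 CPM of cardiomyocyte markers, below the first and second EHT hypoxia libraries (673 and 923). The label is therefore weakly borne out in EHT and in that monolayer library, and the monolayer was not of 1 cell type. Both are called by their culture here, not by a cell type. In bulk RNA, fewer cells of a type and less RNA per cell cannot be told apart. The part of such markers in the results below was not tested. The libraries numbered 3 stood apart from the other 2 in both EHT groups, with the lowest cardiomyocyte sums (19.0 CPM in normoxia and 33.5 in hypoxia), and values without both are given where they matter. Other scalings moved the median difference of all genes. On the deposited values it moved by -0.59 for EHT against monolayer in normoxia, -0.40 for hypoxia in monolayer, 0.17 for hypoxia in EHT and 0.57 for the interaction. With scaling by library total it moved by -0.29, -0.62, -0.19 and 0.42 in the same order, and by 0.13 for EHT against monolayer in hypoxia. Centring the deposited values on each library's median moved it by 0.15, 0.15, 0.02 and -0.13 in that order.

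All 4 TIMP genes were higher in EHT than in monolayer in normoxia, against 19.0% of all genes tested called higher and 24.7% called lower in that comparison. TIMP1, a secreted inhibitor of most MMPs, had 308, 573 and 295 CPM in monolayer normoxia, 1617, 1844 and 1465 in monolayer hypoxia, 12162, 14379 and 4147 in EHT normoxia, and 8975, 10267 and 4498 in EHT hypoxia. Every EHT library lay above every monolayer library, and the EHT libraries numbered 3 were the lowest of EHT. The difference between EHT and monolayer was 4.59 ± 0.44 log2 units in normoxia (SE, n = 3 libraries against 3, limma with Benjamini-Hochberg adjustment over all genes, adjusted p = 7.32e-06) and 2.19 ± 0.44 in hypoxia (adjusted p = 0.0020). Without both EHT libraries numbered 3 these were 5.14 ± 0.25 and 2.55 ± 0.25.

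TIMP3, which is held in the matrix after secretion, had 283, 231 and 134 CPM in monolayer normoxia, 943, 825 and 824 in monolayer hypoxia, 4905, 5045 and 4068 in EHT normoxia, and 2177, 2217.5 and 4329 in EHT hypoxia. Groups did not overlap except the EHT groups, where the third hypoxic library lay among the normoxic ones. TIMP3 was higher in EHT by 4.49 ± 0.29 in normoxia (adjusted p = 4.6e-07) and by 1.68 ± 0.29 in hypoxia (adjusted p = 0.00073). Within EHT its hypoxia difference of -0.76 ± 0.29 did not pass the threshold (adjusted p = 0.055), and without both libraries numbered 3 it was -1.18 ± 0.26 (adjusted p = 0.0020).

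TIMP2, an inhibitor that also takes part in the activation of proMMP2 by MMP14, had 67.0, 37.4 and 36.7 CPM in monolayer normoxia, 166, 178 and 150 in monolayer hypoxia, 185, 179 and 295 in EHT normoxia, and 135, 126 and 181 in EHT hypoxia. Only the monolayer normoxia libraries stood below all others. TIMP2 was higher in EHT in normoxia (2.23 ± 0.25, adjusted p = 2.0e-05), while the difference in hypoxia was -0.17 ± 0.25 (adjusted p = 0.60). TIMP4, best known from heart tissue, had 3.49, 6.62 and 5.88 CPM in monolayer normoxia, 3.57, 7.11 and 6.07 in monolayer hypoxia, 13.3, 19.0 and 21.3 in EHT normoxia, and 12.2, 13.0 and 18.7 in EHT hypoxia. The cultures did not overlap and the oxygen conditions did. EHT was higher in normoxia (1.67 ± 0.33, adjusted p = 0.0014) and in hypoxia (1.34 ± 0.33, adjusted p = 0.0063), and the hypoxia difference in monolayer was 0.06 ± 0.33 (adjusted p = 0.90). On the deposited values neither EHT call of TIMP4 remained (0.87 and 1.13, adjusted p = 0.18 and 0.12).

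Hypoxia raised TIMP1, TIMP2 and TIMP3 in monolayer, by 2.13 ± 0.44 (adjusted p = 0.0017), 1.85 ± 0.25 (6.9e-05) and 2.06 ± 0.29 (0.00010). In EHT no TIMP gene was called with hypoxia by limma, with differences of -0.27, -0.55 and -0.76 for these 3 and -0.28 for TIMP4, although 2 of the 4 had an unadjusted p under 0.05. The difference between the 2 responses was itself tested: it was -2.40 ± 0.62 for TIMP1 (adjusted p = 0.014), -2.41 ± 0.35 for TIMP2 (0.00049) and -2.82 ± 0.41 for TIMP3 (0.00049). For TIMP3 this call was also made on the deposited values (-2.14, adjusted p = 0.029), and for TIMP1 and TIMP2 it was not (-1.72 and -1.70, adjusted p = 0.12 and 0.087). With the replicate number as a block in the EHT libraries alone, TIMP2 was called lower with hypoxia in EHT (-0.55, adjusted p = 0.033). Marker genes of several cell types moved in the same libraries. With hypoxia in monolayer 23.8% of all genes were called higher and 24.1% lower. There 5 of 12 cardiomyocyte markers were called higher (median 2.35 over all 12). Of 10 fibroblast markers 5 were called higher and 3 lower (median 0.77 over all 10). Of 10 epithelial markers 8 were called lower and 1 higher (median -3.87 over all 10). The difference between the responses was called higher for 8 and lower for 2 of the epithelial markers (median 6.03). Their part in the TIMP results was not tested.

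**Figure D1:**
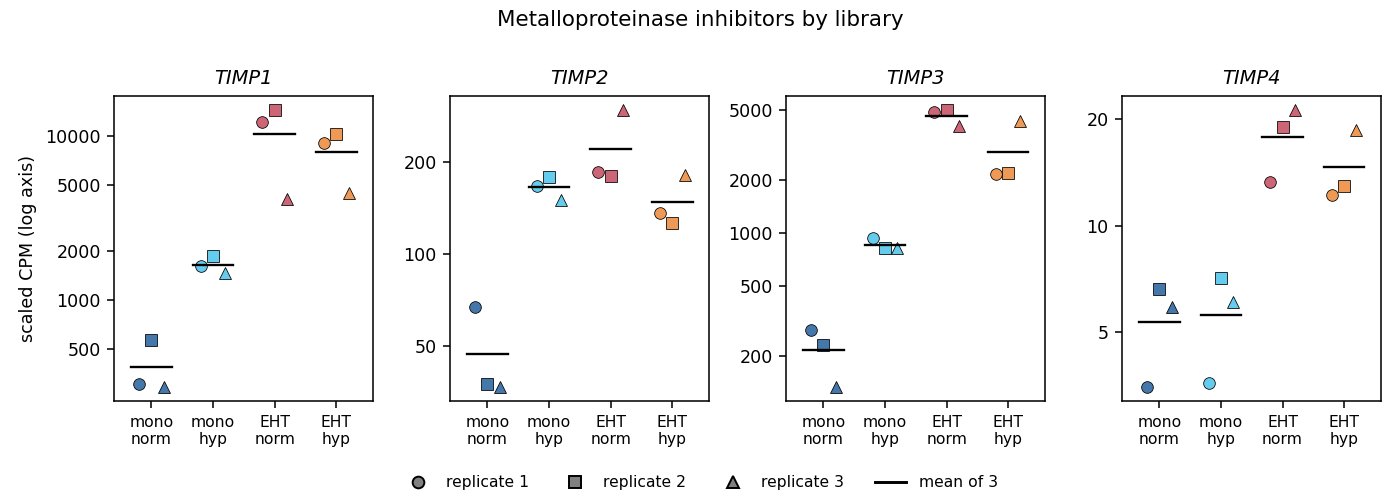
Scaled CPM of the 4 TIMP genes on a log10 axis, 1 point per library (circle, square and triangle for replicates 1, 2 and 3) and a bar at each group's mean, with mono for monolayer, norm for normoxia and hyp for hypoxia. TIMP1 and TIMP3 stand lowest in monolayer normoxia, between 134 and 573 CPM, and at 2177 CPM or more in every EHT library.

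Among the gelatin-cutting and membrane-type MMPs, MMP2 and its activator MMP14 were low in monolayer normoxia alone. MMP2, which cuts gelatin and basement membrane collagen, had 701, 995 and 1021 CPM there, 2601, 2631 and 2505 in monolayer hypoxia, 3395, 3764 and 5397 in EHT normoxia, and 3861, 3641 and 5312 in EHT hypoxia. It was higher in EHT by 2.20 ± 0.22 in normoxia (adjusted p = 1.2e-05) and by 0.71 ± 0.22 in hypoxia (adjusted p = 0.024), and higher with hypoxia in monolayer by 1.53 ± 0.22 (adjusted p = 0.00015). Within EHT the hypoxia difference was 0.04 ± 0.22 (adjusted p = 0.92), and the responses of the cultures differed by -1.49 ± 0.32 (adjusted p = 0.0048). MMP14, a collagenase anchored in the membrane, had 483, 534 and 527 CPM in monolayer normoxia, 1353, 1488 and 1315 in monolayer hypoxia, 1312, 1263 and 2095 in EHT normoxia, and 1794, 2160 and 1560 in EHT hypoxia. EHT was higher in normoxia (1.56 ± 0.19, adjusted p = 4.8e-05), monolayer rose with hypoxia (1.43 ± 0.19, adjusted p = 8.0e-05), and the responses of the cultures were apart by -1.16 ± 0.27 (adjusted p = 0.0081). The MMP14 calls were lost on the deposited values (adjusted p = 0.17, 0.15 and 0.73), as were those of MMP2 except EHT in normoxia (1.52, adjusted p = 0.014). Without both EHT libraries numbered 3, MMP14 was also called higher with hypoxia in EHT (0.61, adjusted p = 0.0054).

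MMP9, the other gelatinase and a product of many inflammatory cells, varied widely within groups. It had 82.6, 138 and 13.1 CPM in monolayer normoxia, 27.6, 24.0 and 22.2 in monolayer hypoxia, 153, 106 and 392 in EHT normoxia, and 97.7, 155 and 270 in EHT hypoxia. In normoxia EHT and monolayer overlapped (1.79 ± 0.70, adjusted p = 0.055), whereas in hypoxia they did not (2.68 ± 0.70, adjusted p = 0.0091). Of 7 leukocyte markers tested, 0 were called by limma in either comparison of EHT with monolayer, and 0 had an unadjusted p under 0.05. The summed level of all 10 was 9.32 to 214 CPM in EHT normoxia and 14.3 to 162 in EHT hypoxia, lowest in the libraries numbered 3, where MMP9 was highest. In monolayer normoxia the sum was 44.8, 293 and 47.7 CPM, highest in the second library, where MMP9 was highest too. In monolayer hypoxia it was 42.2, 40.1 and 39.7 CPM. The part of leukocytes in the MMP9 levels was not tested.

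The secreted collagenases MMP1 and MMP13, which make the first cut in fibrillar collagen, and the stromelysin MMP3, which cuts proteoglycans and activates other proenzymes, were all higher in EHT in normoxia. MMP1 had 166, 56.7 and 16.1 CPM in monolayer normoxia, 41.7, 50.9 and 43.2 in monolayer hypoxia, 176, 246 and 745 in EHT normoxia, and 103, 94.2 and 303 in EHT hypoxia. The first monolayer normoxia library lay just under the lowest EHT one, and the difference was 2.56 ± 0.72 in normoxia (adjusted p = 0.012) and 1.66 ± 0.72 in hypoxia (adjusted p = 0.083). MMP13 had 63.8, 3.66 and 5.0 CPM in monolayer normoxia, 22.5, 30.4 and 18.3 in monolayer hypoxia, 257, 256 and 1013 in EHT normoxia, and 77.8, 86.5 and 548 in EHT hypoxia. It was higher in EHT by 5.16 ± 0.96 in normoxia, the highest difference among the members in that comparison (adjusted p = 0.00097), and by 2.71 ± 0.96 in hypoxia (adjusted p = 0.039). Without both EHT libraries numbered 3 the first was 4.50 ± 0.78 and the second missed the threshold (1.80 ± 0.78, adjusted p = 0.077). MMP3 had 3.00, 0.352 and 0.784 CPM in monolayer normoxia and 8.54, 13.7 and 15.2 in EHT normoxia, then 2.04, 1.47 and 0.827 in monolayer hypoxia and 8.65, 11.3 and 10.2 in EHT hypoxia. Its differences were 3.01 ± 0.47 (adjusted p = 0.00028) and 2.48 ± 0.47 (adjusted p = 0.0014). These genes lie side by side: in the RefSeq table of assembly T2T-MMU8v2.0, MMP7, MMP20, MMP27, MMP8, MMP10, MMP1, MMP3, MMP12 and MMP13 are 9 neighbouring protein-coding genes. The 2 other tested genes of this row, MMP7 and MMP12, were called in no comparison, with 0.588 to 32.5 and 0.098 to 8.58 CPM in monolayer normoxia, although MMP7 was called lower in EHT in normoxia without both EHT libraries numbered 3 (-2.88, adjusted p = 0.036). With the replicate block in the EHT libraries alone, MMP1 and MMP13 were called lower with hypoxia in EHT (-1.15 and -1.39, adjusted p = 0.010 and 0.0095), each being lower in hypoxia within every number.

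Other MMP genes moved the other way or split by oxygen. MMP15, a membrane-type enzyme, had 39.1, 64.5 and 39.2 CPM in monolayer normoxia, 47.8, 37.4 and 46.5 in monolayer hypoxia, 7.12, 5.76 and 6.68 in EHT normoxia, and 2.44, 2.39 and 1.02 in EHT hypoxia. It was lower in EHT, with differences of -2.74 ± 0.29 in normoxia and -4.23 ± 0.29 in hypoxia (adjusted p = 1.6e-05 and 2.1e-06), and hypoxia lowered it in EHT (-1.57 ± 0.29, adjusted p = 0.0012). MMP16, another membrane-type enzyme, had 28.9, 25.4 and 41.3 CPM in monolayer normoxia, 48.1, 57.4 and 56.2 in monolayer hypoxia, 97.3, 86.7 and 92.5 in EHT normoxia, and 36.3, 24.4 and 27.7 in EHT hypoxia. It was higher in EHT in normoxia (1.55 ± 0.19, adjusted p = 5.1e-05) and lower in hypoxia (-0.88 ± 0.19, adjusted p = 0.0034), and hypoxia raised it in monolayer (0.78 ± 0.19, adjusted p = 0.0054) and lowered it in EHT (-1.65 ± 0.19, adjusted p = 4.8e-05). MMP17, anchored by a lipid tail, had 10.9, 11.8 and 11.2 CPM in monolayer hypoxia and no more than 2.86 in any other library. It rose with hypoxia in monolayer (1.96 ± 0.50, adjusted p = 0.0065) and was lower in EHT in hypoxia (-3.04 ± 0.50, adjusted p = 0.00057). MMP28, known from epithelia, fell with hypoxia in monolayer (-1.58 ± 0.39, adjusted p = 0.0049), from 14.0, 24.4 and 39.6 CPM to 8.68, 6.99 and 7.31. Summed levels of 10 epithelial markers were 7398, 1895 and 1465 CPM in monolayer normoxia and 839, 883 and 767 in monolayer hypoxia. Within monolayer normoxia the order of libraries was the reverse of that for MMP28. In EHT normoxia MMP28 had 20.2, 22.8 and 18.5 CPM, beside epithelial sums of 160, 104 and 52.7. The part of epithelial cells in the MMP28 levels was not tested. MMP19 was higher in EHT in normoxia (1.42 ± 0.17, adjusted p = 3.5e-05) and with hypoxia in monolayer (0.65 ± 0.17, adjusted p = 0.0072). MMP21 had 3 reads in all of monolayer hypoxia, which makes monolayer normoxia 11.2-fold higher (95% counting interval 3.65 to 55.7) and EHT hypoxia 10.3-fold higher (3.11 to 54.0).

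**Figure D2:**
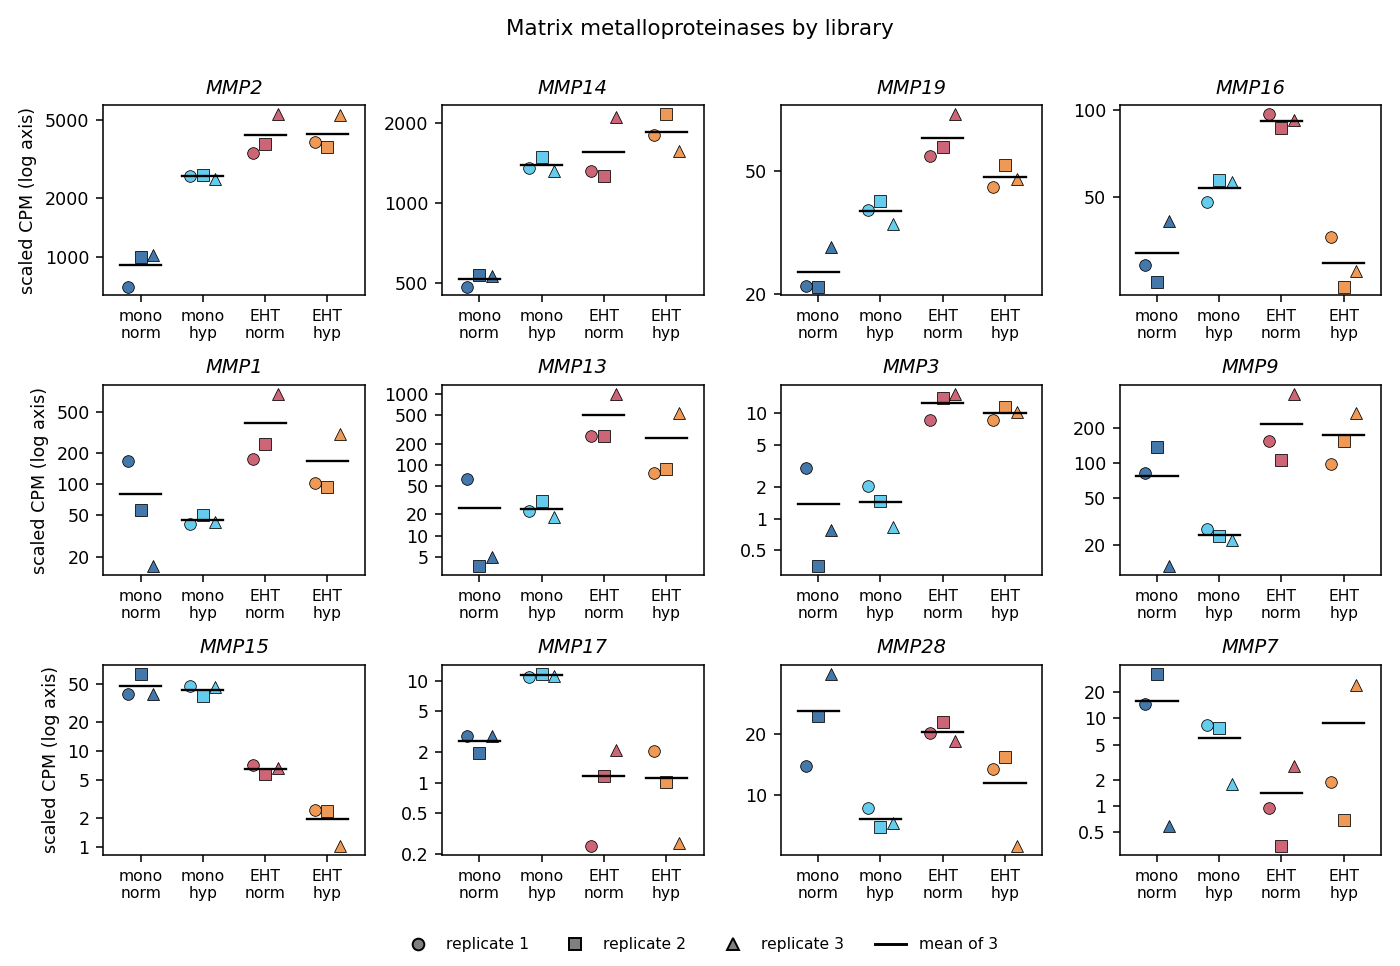
Scaled CPM of MMP genes on a log10 axis, 1 point per library (circle, square and triangle for replicates 1, 2 and 3) and a bar at each group's mean, with mono for monolayer, norm for normoxia and hyp for hypoxia. MMP13 reaches 1013 CPM in EHT normoxia against at most 63.8 in any monolayer library, while MMP15 is at or below 7.12 CPM in every EHT library.

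Summed over the 4 TIMP and 22 MMP genes, TIMP reads per MMP read were 0.406, 0.446 and 0.271 in monolayer normoxia, 0.648, 0.650 and 0.602 in monolayer hypoxia, 3.15, 3.36 and 0.865 in EHT normoxia, and 1.87, 2.02 and 1.11 in EHT hypoxia. Every EHT library was above every monolayer library, and both EHT libraries numbered 3 were the lowest of their group. Read sums are dominated by TIMP1, TIMP3, MMP2 and MMP14 and are not corrected for length, so only the order of libraries can be read from them.

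Among the ADAM genes, changes ran in both directions. ADAM8, an adhesion and shedding protein best known in leukocytes, had 4.82, 4.72 and 3.92 CPM in monolayer normoxia, 2.04, 2.33 and 2.90 in monolayer hypoxia, 12.1, 7.83 and 36.5 in EHT normoxia, and 53.8, 87.7 and 185 in EHT hypoxia. All groups were apart from one another. It was higher in EHT by 1.66 ± 0.50 in normoxia (adjusted p = 0.018) and by 5.05 ± 0.50 in hypoxia (adjusted p = 2.0e-05), and hypoxia raised it in EHT by 2.61 ± 0.50 (adjusted p = 0.0016). Within each EHT group the library numbered 3 was highest, and without both these differences were 1.04, 4.58 and 2.76. ADAM33 had 1.81, 3.24 and 3.63 CPM in monolayer normoxia, 1.02, 0.858 and 0.965 in monolayer hypoxia, 2.14, 3.46 and 5.18 in EHT normoxia, and 35.7, 27.3 and 8.19 in EHT hypoxia. Only EHT hypoxia stood apart above: EHT was higher in hypoxia by 3.83 ± 0.49 (adjusted p = 0.00011), and hypoxia raised it in EHT by 2.40 ± 0.49 (adjusted p = 0.0023). Without both EHT libraries numbered 3 these were 4.46 and 3.30. ADAM28 was lower in EHT in normoxia (-2.39 ± 0.47, adjusted p = 0.0015) and higher in hypoxia (1.44 ± 0.47, adjusted p = 0.028), with 0.712, 0.921 and 0 CPM in EHT normoxia and 6.58, 3.92 and 7.17 in EHT hypoxia.

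The main constitutive and inducible sheddases differed less. ADAM10, which releases Notch and cadherin ectodomains, had 104, 98.5 and 82.1 CPM in monolayer normoxia, 123, 123 and 143 in monolayer hypoxia, 97.0, 90.2 and 75.5 in EHT normoxia, and 62.6, 55.3 and 66.6 in EHT hypoxia. In normoxia the cultures overlapped, and in hypoxia EHT was lower by a log2 difference of -1.07 ± 0.14 (adjusted p = 0.00013). Its hypoxia responses were opposite, 0.45 ± 0.14 in monolayer (adjusted p = 0.018) and -0.50 ± 0.14 in EHT (adjusted p = 0.014), but the first turned to -0.01 on the deposited values and to -0.20 with scaling by library total, neither passing the threshold. ADAM17, which releases TNF and EGF receptor ligands, had 35.3, 37.0 and 35.9 CPM in monolayer normoxia, 34.0, 39.0 and 44.3 in monolayer hypoxia, 54.3, 52.3 and 49.9 in EHT normoxia, and 59.8, 78.5 and 94.2 in EHT hypoxia. It was higher in EHT by 0.53 ± 0.17 in normoxia (adjusted p = 0.022) and 0.96 ± 0.17 in hypoxia (adjusted p = 0.00075), and by 0.54 ± 0.17 with hypoxia in EHT (adjusted p = 0.022). Its normoxia difference on the deposited values turned to -0.14 (adjusted p = 0.85), and with the replicate block in EHT alone the hypoxia calls of ADAM10 and ADAM17 in EHT were lost (adjusted p = 0.076 and 0.091).

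ADAM12, linked to growth factor shedding and to fibrosis, had 63.7, 94.4 and 78.1 CPM in monolayer normoxia, 89.0, 104 and 119 in monolayer hypoxia, 63.6, 59.1 and 101 in EHT normoxia, and 98.9, 101 and 150 in EHT hypoxia. The groups overlapped, and only hypoxia in EHT was called (0.66 ± 0.23, adjusted p = 0.038). ADAM19, which acts on neuregulin and takes part in heart development, had 136, 73.7 and 30.3 CPM in monolayer normoxia, 142, 147 and 139 in monolayer hypoxia, 60.5, 69.7 and 49.0 in EHT normoxia, and 27.6, 28.7 and 16.9 in EHT hypoxia. It was lower in EHT in hypoxia (-2.56 ± 0.40, adjusted p = 0.00038), rose with hypoxia in monolayer (1.08 ± 0.40, adjusted p = 0.040) and fell in EHT (-1.30 ± 0.40, adjusted p = 0.021). ADAM9 was higher in EHT by 1.39 ± 0.12 in normoxia (adjusted p = 3.2e-06) and 0.35 ± 0.12 in hypoxia (adjusted p = 0.032), with 136 to 147 CPM in monolayer normoxia and 340 to 384 in EHT normoxia. ADAM15 had 43.8, 41.8 and 46.7 CPM in monolayer normoxia and 128, 117 and 114 in EHT normoxia (1.43 ± 0.16, adjusted p = 2.6e-05) and fell with hypoxia in EHT to 51.9, 45.9 and 70.7 (-1.11 ± 0.16, adjusted p = 0.00024). ADAM23, an adhesion protein without protease activity, had 26.6, 15.5 and 10.2 CPM in monolayer normoxia, 10.7, 5.89 and 8.27 in monolayer hypoxia, 5.22, 7.26 and 6.10 in EHT normoxia, and 0.376, 0.682 and 0.512 in EHT hypoxia. It was lower in EHT in both oxygen conditions (-1.33 ± 0.36 and -3.08 ± 0.36, adjusted p = 0.010 and 6.2e-05) and with hypoxia in EHT (-2.71 ± 0.36, adjusted p = 0.00012). ADAM11, another member without protease activity, had 3 reads in all of EHT normoxia, and its level in monolayer normoxia was 33.4-fold higher (95% counting interval 11.3 to 164). It had 6.49, 4.93 and 1.67 CPM in monolayer normoxia and at most 1.28 in any other library. It therefore passed the filter mainly through that group, and its calls are among the counts of ADAM genes below.

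**Figure D3:**
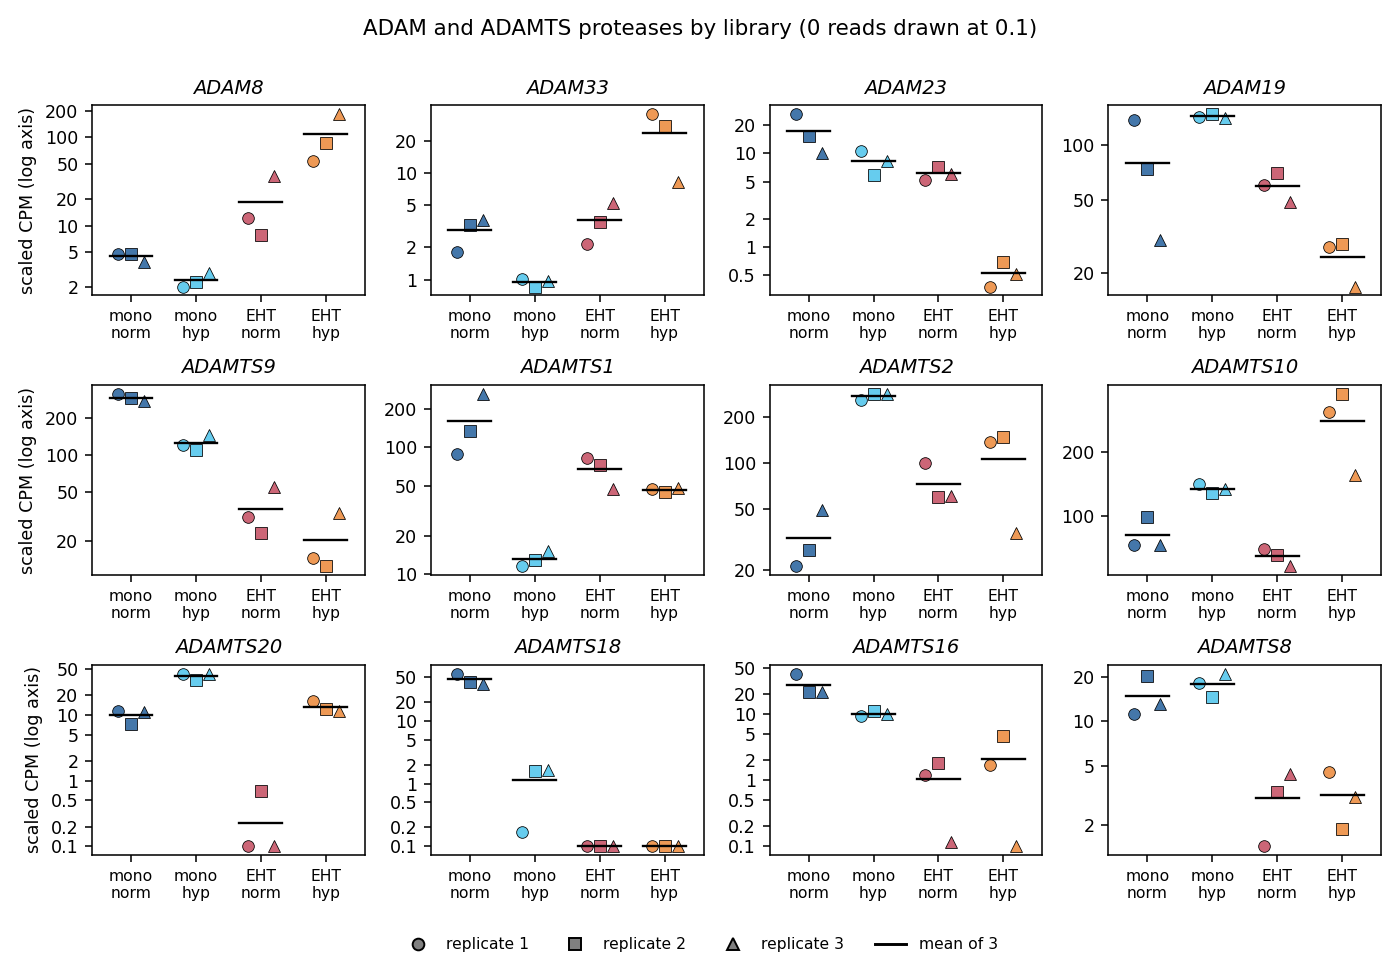
Scaled CPM of ADAM and ADAMTS genes on a log10 axis, 1 point per library (circle, square and triangle for replicates 1, 2 and 3) and a bar at each group's mean, with mono for monolayer, norm for normoxia and hyp for hypoxia. Libraries with 0 reads, and means of 0, are drawn at 0.1. ADAM8 rises to 185 CPM in EHT hypoxia, and ADAMTS18 has a read only in monolayer libraries.

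ADAMTS genes were mostly lower in EHT. ADAMTS9, which cuts versican and aggrecan, had 312, 288 and 272 CPM in monolayer normoxia, 119, 109 and 146 in monolayer hypoxia, 31.1, 23.1 and 55.0 in EHT normoxia, and 14.5, 12.5 and 33.8 in EHT hypoxia. Monolayer was above EHT in every library, with differences of -3.07 ± 0.34 in normoxia (adjusted p = 2.2e-05) and -2.72 ± 0.34 in hypoxia (adjusted p = 9.6e-05). It fell with hypoxia in monolayer (-1.23 ± 0.34, adjusted p = 0.010), and in EHT the difference of -0.88 was not called (adjusted p = 0.060). That difference was called with the replicate block (adjusted p = 0.031 in EHT alone), with scaling by library total (-1.09, adjusted p = 0.028) and without both EHT libraries numbered 3 (-0.97, adjusted p = 0.00075). ADAMTS1, another versican-cutting enzyme, had 89.4, 134 and 265 CPM in monolayer normoxia, 11.6, 13.0 and 15.4 in monolayer hypoxia, 82.6, 73.4 and 46.8 in EHT normoxia, and 47.0, 44.9 and 47.9 in EHT hypoxia. Hypoxia lowered it in monolayer (-3.42 ± 0.32, adjusted p = 5.1e-06), below both EHT groups. EHT was lower in normoxia (-1.16 ± 0.32, adjusted p = 0.011) and higher in hypoxia (1.78 ± 0.32, adjusted p = 0.00096).

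ADAMTS5, an aggrecan- and versican-cutting enzyme whose gene neighbours ADAMTS1 in the RefSeq table, had 15.2, 31.4 and 23.0 CPM in monolayer normoxia, 3.40, 5.52 and 5.24 in monolayer hypoxia, 16.1, 12 and 1.15 in EHT normoxia, and 12.2, 11.4 and 3.33 in EHT hypoxia. It fell with hypoxia in monolayer (-2.15 ± 0.73, adjusted p = 0.027). The EHT libraries numbered 3 lay far below the other EHT libraries, and without both EHT was higher in hypoxia (1.26, adjusted p = 0.0052, against 0.70 and 0.47 with them). ADAMTS4, the third aggrecan-cutting enzyme of this kind, had 3 reads in all of EHT normoxia and was 31.4-fold higher in monolayer normoxia (95% counting interval 10.6 to 154). It fell with hypoxia in monolayer (-2.54 ± 0.63, adjusted p = 0.0055). Its levels were 1.47, 4.44 and 8.33 CPM in monolayer normoxia and at most 1.71 in any other library, so it passed the filter through that group, and its calls are among the counts of ADAMTS genes below. ADAMTS8, which lies next to ADAMTS15, was lower in EHT in both oxygen conditions (-2.18 ± 0.39 and -2.39 ± 0.39, adjusted p = 0.00078 and 0.00055), with 11.3 to 20.3 CPM in monolayer normoxia and 1.42 to 4.37 in EHT normoxia.

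The procollagen-trimming enzymes did not move together. ADAMTS2 had 21.2, 27.2 and 49.2 CPM in monolayer normoxia, 260, 285 and 281 in monolayer hypoxia, 99.9, 59.9 and 61.0 in EHT normoxia, and 138, 148 and 35.3 in EHT hypoxia. Monolayer hypoxia stood above every other library, a rise of 3.15 ± 0.46 (adjusted p = 0.00013). EHT was higher in normoxia (1.21 ± 0.46, adjusted p = 0.046, or 0.058 with the replicate block) and lower in hypoxia (-1.61 ± 0.46, adjusted p = 0.014). Without both EHT libraries numbered 3, hypoxia was also called higher in EHT (0.88, adjusted p = 0.029). ADAMTS3 was lower in EHT in both conditions (-1.12 ± 0.35 and -1.87 ± 0.35, adjusted p = 0.020 and 0.0012). ADAMTS14 was higher in EHT in normoxia (0.96 ± 0.35, adjusted p = 0.040) and fell with hypoxia in EHT (-1.73 ± 0.35, adjusted p = 0.0020), from 33.2, 36.5 and 19.6 CPM to 11.8, 10.9 and 4.35.

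ADAMTS12 had 117, 108 and 92.7 CPM in monolayer normoxia, 170, 177 and 185 in monolayer hypoxia, 234, 198 and 98.6 in EHT normoxia, and 119, 114 and 87.8 in EHT hypoxia. The EHT normoxia library numbered 3 lay far below the others of its group. It rose with hypoxia in monolayer (0.74 ± 0.25, adjusted p = 0.027) and was lower in EHT in hypoxia (-0.74 ± 0.25, adjusted p = 0.033). Without both EHT libraries numbered 3 it was also called higher in EHT in normoxia (1.02, adjusted p = 3.0e-05) and lower with hypoxia in EHT (-0.88, adjusted p = 0.00030). ADAMTS17 was lower in EHT in normoxia (-2.92 ± 0.79, adjusted p = 0.0099), a call kept under every alternative. It had 16.7, 9.23 and 6.67 CPM in monolayer normoxia and 2.14, 1.61 and 0 in EHT normoxia. Smaller or less certain differences were found for ADAMTS6, ADAMTS7 and ADAMTS13. ADAMTS7 was lower in EHT in both conditions (-0.64 ± 0.22 and -0.78 ± 0.22, adjusted p = 0.035 and 0.015), and ADAMTS6 in normoxia (-0.68 ± 0.24, adjusted p = 0.039). ADAMTS13, which cuts von Willebrand factor, fell with hypoxia in monolayer (-1.03 ± 0.33, adjusted p = 0.022).

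The remaining ADAMTS genes included those furthest apart between groups. ADAMTS18 had 56.5, 42.1 and 37.8 CPM in monolayer normoxia, 0.170, 1.59 and 1.65 in monolayer hypoxia, and no read in any EHT library. Against a floor of 3 reads over the group, it was at least 333-fold higher in monolayer than in EHT in normoxia and at least 6.14-fold higher in hypoxia. Since it passed the filter through monolayer alone, its fitted differences depend on the pseudocount, and its calls are among the counts of ADAMTS genes below. ADAMTS16 had 40.9, 21.4 and 21.3 CPM in monolayer normoxia, 9.36, 11.2 and 9.93 in monolayer hypoxia, 1.19, 1.84 and 0.115 in EHT normoxia, and 1.69, 4.61 and 0 in EHT hypoxia. It was lower in EHT by log2 differences of -4.33 ± 0.70 (adjusted p = 0.00038) and -2.58 ± 0.70 (adjusted p = 0.012). ADAMTS19 had 39.8, 50.6 and 25.1 CPM in monolayer normoxia, 7.31, 6.25 and 8.13 in monolayer hypoxia, 0.237, 2.42 and 5.98 in EHT normoxia, and 3.38, 1.02 and 0 in EHT hypoxia, and it was lower in EHT in both conditions (-3.96 ± 0.76 and -2.42 ± 0.76, adjusted p = 0.0012 and 0.023). ADAMTS20, which acts on versican during pigment cell migration, had 11.6, 7.39 and 11.3 CPM in monolayer normoxia, 43.2, 34.1 and 42.2 in monolayer hypoxia, 0, 0.691 and 0 in EHT normoxia, and 16.4, 12.5 and 11.8 in EHT hypoxia. Hypoxia raised it in monolayer (1.95 ± 0.35, adjusted p = 0.00064) and by a larger log2 difference in EHT (4.38 ± 0.35, adjusted p = 2.8e-06), with a tested difference of 2.43 ± 0.49 (adjusted p = 0.0037). With so few reads in EHT normoxia, the sizes of the rise in EHT and of this tested difference depend on the pseudocount. ADAMTS10, which binds fibrillin, had 73.1, 98.9 and 73.2 CPM in monolayer normoxia, 141, 127 and 133 in monolayer hypoxia, 70.2, 65.8 and 58.0 in EHT normoxia, and 306, 374 and 156 in EHT hypoxia. It rose with hypoxia in EHT by 2.01 ± 0.25 (adjusted p = 7.6e-05).

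In normoxia, then, inhibitors and secreted collagenases were higher in EHT and ADAMTS genes lower. Of 52 members 17 were called higher (19.0% of all genes) and 16 lower (24.7% of all genes). By family this was 4 higher of 4 TIMP genes (median log2 difference 3.36), 7 and 1 of 14 MMP genes (median 1.48), 4 and 3 of 15 ADAM genes (median -0.10) and 2 and 12 of 19 ADAMTS genes (median -1.16). The median was -0.15 over all members and -0.07 over all genes tested. On the deposited values the members split 7 higher and 18 lower, with 2.69% and 25.6% of all genes called. Calls lost there were those of ADAM8, ADAM9, ADAM15, ADAM17, ADAMTS2, ADAMTS14, MMP14, MMP16, MMP19 and TIMP4. Scaling by library total ended those of ADAM17, ADAMTS2 and ADAMTS14, and voom weights that of ADAM8. Leaving out 1 library ended 9 calls in at least 1 case (ADAM8, ADAM17, ADAM23, ADAMTS2, ADAMTS3, ADAMTS6, ADAMTS7, ADAMTS14 and MMP1), with adjusted p of 0.0502 to 0.155.

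In hypoxia the differences between EHT and monolayer were smaller than in normoxia for TIMP1, TIMP2, TIMP3, MMP2 and MMP14, by the interaction given for each above. Of the members 15 were higher in EHT (18.0% of all genes) and 16 lower (22.3% of all genes). These were 3 TIMP genes, all higher, 5 and 3 MMP genes, 5 and 3 ADAM genes and 2 and 10 ADAMTS genes. Medians over all tested genes of each family were 1.51, 0.58, 0.30 and -0.78 in that order, 0.12 over members and -0.07 over all genes. Called higher in EHT in both oxygen conditions were ADAM8, ADAM9, ADAM17, MMP2, MMP3, MMP13, TIMP1, TIMP3 and TIMP4. Called lower in both were ADAM23, ADAMTS3, ADAMTS7, ADAMTS8, ADAMTS9, ADAMTS16, ADAMTS18, ADAMTS19, ADAMTS20 and MMP15. ADAM28, ADAMTS1, ADAMTS2 and MMP16 were called in opposite directions. These overlaps were not counted over all genes. The deposited values ended 11 calls, those of ADAM9, ADAM10, ADAM17, ADAM28, ADAMTS7, ADAMTS10, ADAMTS12, MMP2, MMP16, MMP21 and TIMP4. With voom weights the calls of ADAM28, ADAMTS19 and MMP13 were lost, and with a pseudocount of 0.1 those of ADAM28 and ADAMTS20. Leaving out 1 library ended those of ADAM9, ADAM28, ADAMTS7, ADAMTS12, ADAMTS18, ADAMTS19, MMP2, MMP13 and MMP21 in at least 1 case (0.0519 to 0.134).

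Hypoxia in monolayer raised 15 members (23.8% of all genes) and lowered 11 (24.1% of all genes). These were 3 TIMP genes, all raised, 5 and 2 MMP genes, 3 and 2 ADAM genes and 4 and 7 ADAMTS genes. Medians over all tested genes of each family were 1.96, 0.09, -0.10 and -0.51 in that order, -0.12 over members and -0.08 over all genes. The split of this comparison moved with the scaling. Members split 6 higher and 14 lower on the deposited values (4.43% and 19.9% of all genes), 16 and 7 after centring them (27.8% and 18.6%), and 8 and 22 with scaling by library total (9.25% and 49.6%). Scaling by library total ended the rises of ADAM9, ADAM19, ADAMTS10, ADAMTS12, MMP16 and MMP19, and the deposited values those of these 6 and of MMP2 and MMP14. The rise of ADAM10 was lost under both as well, with its sign turned, as given above. Leaving out 1 library ended the calls of ADAM10, ADAM19, ADAM23, ADAMTS5, ADAMTS10, ADAMTS12, ADAMTS13, ADAMTS19 and MMP21 in at least 1 case (0.0508 to 0.197).

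Hypoxia in EHT raised 7 members (19.5% of all genes) and lowered 8 (18.4% of all genes). These were 2 MMP genes, both lower, 5 and 4 ADAM genes and 2 and 2 ADAMTS genes. Medians over all tested genes of these families were -0.34, 0.01 and 0.00 in that order. The median was -0.42 for the TIMP genes, -0.27 over members and 0.02 over all genes. ADAM23, ADAMTS10 and ADAMTS20 were called the same way in both cultures, and ADAM10, ADAM19 and MMP16 in opposite ways. Such overlaps were not counted over all genes. The deposited values gave 5 members higher and 2 lower (7.10% and 2.23% of all genes), and scaling by library total 5 and 16 (13.5% and 25.1%). Calls lost on the deposited values were those of ADAM10, ADAM12, ADAM15, ADAM17, ADAM19, ADAMTS7, ADAMTS14 and MMP15. Voom weights ended those of ADAM12, ADAM19, ADAMTS7 and MMP15, and scaling by library total those of ADAM12 and ADAM17. Leaving out 1 library ended the calls of ADAM10, ADAM12, ADAM17, ADAM19 and ADAMTS7 in at least 1 case (0.0524 to 0.154), and the replicate block in EHT alone ended those of ADAM10, ADAM17 and ADAMTS7 (0.11).

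**Figure D4:**
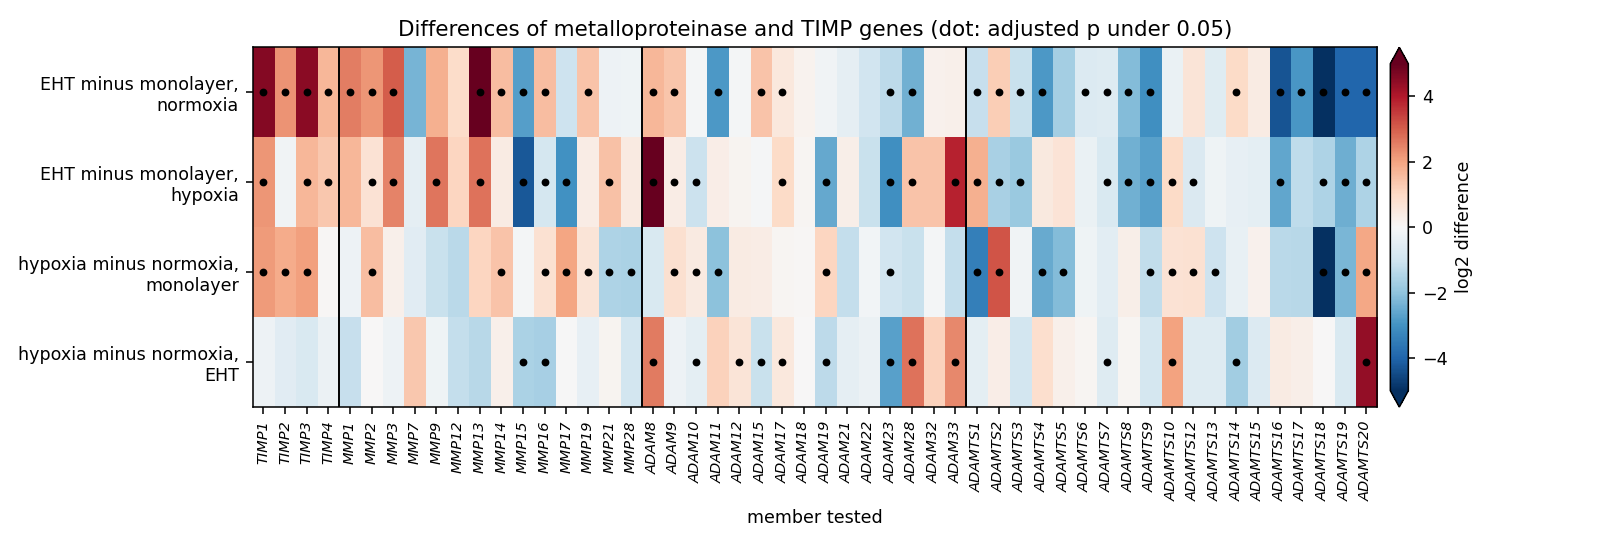
Log2 differences of all 52 tested members (columns) in the 4 comparisons of groups, ordered by family, with red for a higher level in the group named first. Dots mark calls at an adjusted p below 0.05. TIMP genes are higher in EHT in normoxia in all 4 cases (19.0% of all genes called higher), and 12 of 19 ADAMTS genes are lower (24.7% of all genes). The 12 include ADAMTS4 and ADAMTS18, with 3 and 0 reads in EHT normoxia.

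The hypoxia response itself differed between the cultures for 24 members, 9 with a higher response in EHT (13.5% of all genes) and 15 with a lower one (13.3% of all genes). The 15 were 3 of 4 TIMP genes, 5 of 14 MMP genes (MMP2, MMP14, MMP15, MMP16 and MMP19), 5 ADAM and 2 ADAMTS genes, and the 9 were 4 ADAM and 5 ADAMTS genes. The 9 include ADAMTS18, with no read in EHT and so no response measured there. They also include ADAM11 and ADAMTS4, with 3 reads each in EHT normoxia. Median interactions were -2.40 for TIMP, -0.98 for MMP, 0.25 for ADAM and 0.39 for ADAMTS genes, against 0.05 over all genes. After ADAMTS18, the highest were those of ADAM28 (3.83 ± 0.67, adjusted p = 0.0016), ADAM33 (3.59 ± 0.70, adjusted p = 0.0028) and ADAM8 (3.39 ± 0.71, adjusted p = 0.0044). ADAM28 had at most 0.921 CPM in EHT normoxia, so the size of its value depends on the pseudocount. Among called members the lowest were those of ADAMTS2 (-2.82 ± 0.64, adjusted p = 0.0069), TIMP3 and MMP16 (-2.43 ± 0.27, adjusted p = 0.00012). The split depended on the scaling. It was 12 and 2 on the deposited values (9.49% and 0.844% of all genes), and 11 and 10 with scaling by library total (25.1% and 5.73% of all genes). The deposited values ended 13 calls, those of ADAM9, ADAM10, ADAM15, ADAM19, ADAM23, ADAMTS12, MMP2, MMP14, MMP15, MMP16, MMP19, TIMP1 and TIMP2. Scaling by library total ended those of ADAM10, ADAM23, MMP14, MMP15 and MMP19, and voom weights those of ADAM8, ADAM23, ADAMTS4 and MMP15.

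**Figure D5:**
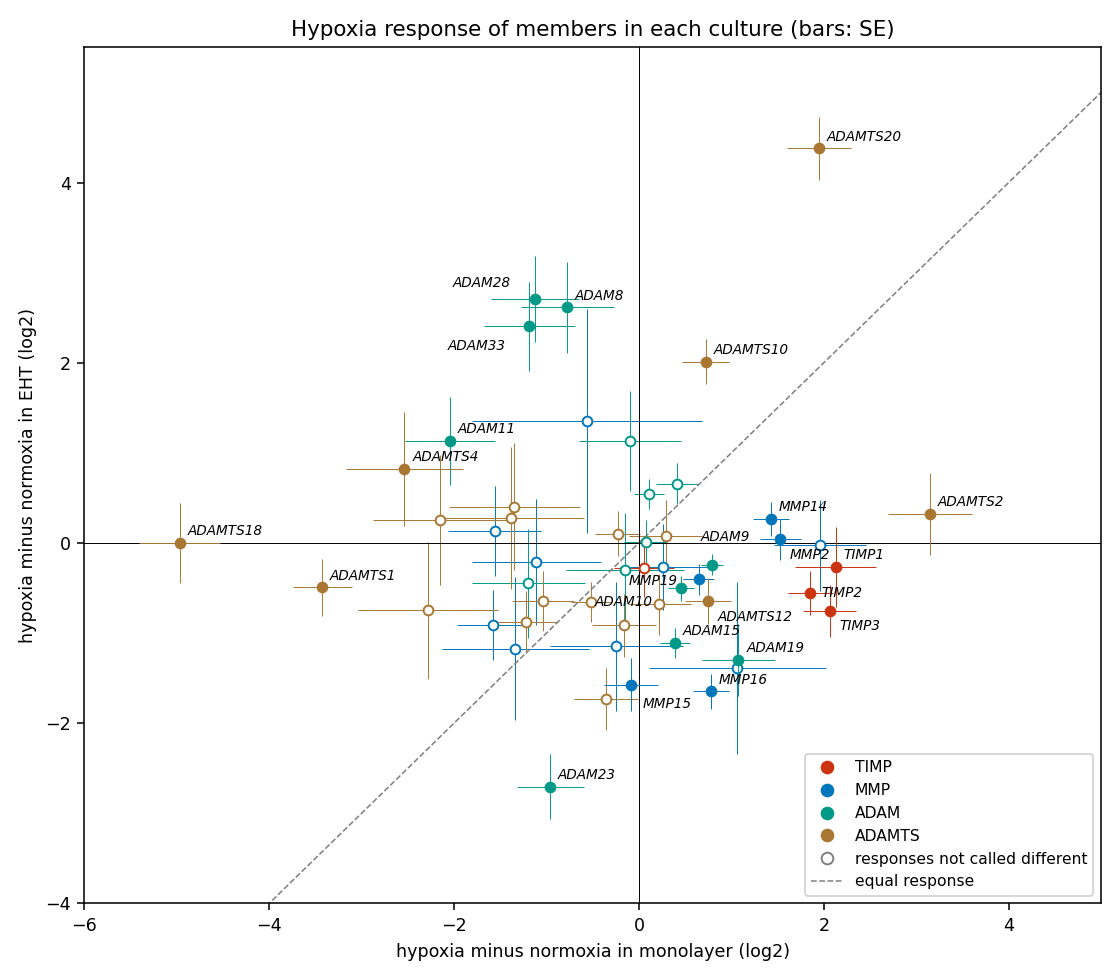
Hypoxia minus normoxia in EHT (vertical) against that in monolayer (horizontal), log2 differences with standard errors, 1 point per tested member, filled where the responses were called different. TIMP1, TIMP2 and TIMP3 lie at 1.85 to 2.13 in monolayer and below 0 in EHT. The groups on the axes do not share libraries, and ADAMTS18 rests on the pseudocount in EHT.

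Other genes of the same pathways were taken from fixed lists. Their counts are given beside the shares of all genes called and were not tested against them. Of 12 other inhibitors and clearance receptors, 8 were higher and 2 lower in EHT in normoxia (19.0% and 24.7% of all genes). Hypoxia raised 7 in monolayer (23.8% of all genes). SERPINE2, an inhibitor of serine proteases, was higher in EHT by 2.85 ± 0.20 in normoxia (adjusted p = 7.7e-07), and LRP1, the receptor that clears protease complexes, by 1.73 ± 0.20 (adjusted p = 3.1e-05). A2M, a general protease trap, was lower in EHT in normoxia (-2.15 ± 0.50, adjusted p = 0.0040), and so was SPOCK3 (-1.52 ± 0.44, adjusted p = 0.015). RECK, a membrane inhibitor of MMPs, rose with hypoxia in monolayer from 53.5, 51.1 and 63.3 CPM to 161, 149 and 162 (1.49 ± 0.13, adjusted p = 4.2e-06).

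Of 9 tested activators and inducers, 6 were higher and 2 lower in EHT in normoxia (19.0% and 24.7% of all genes), and 3 and 1 in hypoxia (18.0% and 22.3%). PLAT and PLAUR, a plasminogen activator and the receptor of urokinase, were higher in EHT in normoxia by 2.61 ± 0.24 and 2.30 ± 0.30 (adjusted p = 4.9e-06 and 7.9e-05) and in hypoxia by 2.30 ± 0.24 and 2.35 ± 0.30 (adjusted p = 2.4e-05 and 0.00011). PCSK5, a proprotein convertase, was lower in both (-1.26 ± 0.21 and -2.61 ± 0.21, adjusted p = 0.00046 and 4.4e-06). PCSK6 rose with hypoxia in both cultures, by 2.25 ± 0.39 in monolayer and 2.62 ± 0.39 in EHT (adjusted p = 0.00047 and 0.00024), while PCSK7 fell (-1.86 ± 0.37 and -2.39 ± 0.37, adjusted p = 0.0012 and 0.00033).

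Of 9 partners that carry or mature ADAM10 and ADAM17, 3 were higher and 1 lower in EHT in normoxia (19.0% and 24.7% of all genes). In hypoxia these were 5 and 1 (18.0% and 22.3% of all genes). TSPAN5, a tetraspanin that carries ADAM10, was higher in EHT by 2.07 ± 0.19 and 1.74 ± 0.19 (adjusted p = 5.7e-06 and 4.2e-05). RHBDF1, which carries ADAM17 to the surface, was higher by 0.73 ± 0.19 and 1.24 ± 0.19 (adjusted p = 0.0069 and 0.00031). Of 5 tested shed ligands, 2 were higher and 1 lower in EHT in normoxia. NRG1, a neuregulin, was higher by 2.02 ± 0.29 (adjusted p = 0.00013) and AREG, an EGF receptor ligand, by 2.31 ± 0.77 (adjusted p = 0.029), while HBEGF fell with hypoxia in both cultures (-1.38 ± 0.33 in each, adjusted p = 0.0041 in monolayer and 0.0055 in EHT).

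Substrates of these proteases were listed too. Of 9 tested proteoglycan genes and partners, 1 was higher and 3 lower in EHT in normoxia (19.0% and 24.7% of all genes). Hypoxia raised 3 and lowered 3 in monolayer (23.8% and 24.1% of all genes). VCAN, the gene of versican, had 2472, 2093 and 2111 CPM in monolayer normoxia, 5174, 5608 and 5384 in monolayer hypoxia, 2138, 2343 and 1413 in EHT normoxia, and 1363, 1096 and 877 in EHT hypoxia, so that it rose with hypoxia in monolayer (1.28 ± 0.21, adjusted p = 0.00040) and fell in EHT (-0.81 ± 0.21, adjusted p = 0.010). HAS2, which makes hyaluronan, was lower in EHT in normoxia (-3.59 ± 0.42, adjusted p = 3.3e-05). Of 8 fibrillar collagens, 2 were higher and 1 lower in EHT in normoxia, near the shares of all genes, and 2 were lower in hypoxia (22.3% of all genes). Hypoxia raised 4 in monolayer (23.8% of all genes) and 3 in EHT (19.5%). COL1A1 was higher in EHT in normoxia by 1.61 ± 0.36 (adjusted p = 0.0032), and COL2A1, a cartilage collagen, was lower by a log2 difference of -5.08 ± 0.72 (adjusted p = 0.00013).

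Of 7 ADAMTS-like genes, 3 were higher and 2 lower in EHT in normoxia (19.0% and 24.7% of all genes). Among them were ADAMTSL3 with a difference of 2.18 ± 0.38 (adjusted p = 0.00066) and ADAMTSL2 with one of -3.08 ± 0.63 (adjusted p = 0.0018). Of 13 other metalloproteases, 6 were higher and 3 lower in that comparison. ECE1, which makes endothelin, was higher by 1.63 ± 0.14 (adjusted p = 2.6e-06), and MEP1A, a meprin of epithelia, was lower by a log2 difference of -4.03 ± 0.59 (adjusted p = 0.00017). Of 14 AP-1 and ETS factors, known regulators of MMP genes, 2 were higher and 4 lower in EHT in normoxia, near the shares of all genes. In hypoxia these were 4 and 2 (18.0% and 22.3% of all genes). FOSL1 had 2.93, 1.83 and 0.882 CPM in monolayer normoxia, 7.66, 7.36 and 5.24 in monolayer hypoxia, 23.3, 31.9 and 62.5 in EHT normoxia and 37.2, 63.1 and 111 in EHT hypoxia, a difference between cultures of 4.03 ± 0.45 in normoxia (adjusted p = 2.2e-05) and 3.17 ± 0.45 in hypoxia (adjusted p = 0.00021). Within each EHT group its highest library was the one numbered 3, as for MMP1 and MMP13. Between the EHT groups they went apart: within every number FOSL1 was higher in hypoxia, and MMP1 and MMP13 were lower. A link between FOSL1 and these MMP genes was not tested. ELF3, an epithelial factor, was lower in EHT in normoxia (-6.52 ± 0.38, adjusted p = 2.8e-07), where 8 of 10 epithelial markers were called lower too.

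Of the 52 members tested, ADAM18, ADAM21, ADAM22, ADAM32, ADAMTS15, MMP7 and MMP12 were called in none of the 4 comparisons of groups. Not tested were 13 members: MMP8, MMP10, MMP11, MMP20, MMP24, MMP25, MMP26, MMP27, ADAM2, ADAM7, ADAM20, ADAM29 and ADAM30. Of these 7 had no read in any library, which over 93260256 reads allows up to 0.0322 CPM, a bound that covers counting error only. FURIN, which nearly all cells use, was also listed at 0 in every library, so a listing at 0 may not mean that a gene was silent. Just inside the filter were ADAM21, ADAM22 and ADAMTS4, at 1.03, 1.09 and 1.10 log2 units above the minimum, and just outside were MMP25 and MMP24, at 0.85 and 0.53.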

How the data were processed

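The table deposited by the authors holds variance-stabilised log2 values per gene and library, and the submitters' processing notes name HISAT2, featureCounts and DESeq2 as the authors' tools without their roles. Their versions, the genome build, the annotation and the strand setting were not given in these sources. Per the labels' protocols, cDNA libraries were prepared with an Ion Total RNA-Seq kit and read on an Ion Proton. The transformation was inverted: 100% of values gave whole reads within a tolerance of 0.01. The deposited scaling factors were 0.412 to 1.42 times median-of-ratios factors, and on those values the variance model shared 1 trend (infinite prior df), so the reads were rescaled by median-of-ratios factors and expressed as log2(CPM + 0.5). limma 3.58.1 (R 4.3.3) fitted 4 group means to 12 libraries with a variance trend (prior df 4.73). P-values were adjusted by Benjamini-Hochberg over 12084 genes per comparison, threshold 0.05. Counts of reads cover counting error only, and genes that overlap others may share reads.

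Members and lists were chosen with earlier results of these data known. Values in every library were given for 17 genes fixed by name and, per comparison and direction, the 3 members furthest apart among those called without overlap. From each list up to 2 genes per direction were eligible for naming. Alternatives were the deposited values with and without centring, scaling by library total, voom weights, other pseudocounts and filters, the replicate number as a block, the compared groups alone, and each library left out. Omitting both EHT libraries numbered 3, and the block in EHT alone, were added after the data were seen. Deviations of libraries sharing a number correlated between the EHT groups (r = 0.12, 0.24 and 0.31) and not between the monolayer groups (-0.07, 0.04 and 0.02). In EHT, numbers 1 and 2 also correlated with each other (0.23 and 0.10), and number 3 went against both (-0.32 to -0.15), so the pattern sets number 3 apart rather than 3 separate pairs. No label says what a number shares. All 65 symbols were found in the RefSeq table. The fit was tested on simulated data.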

Additional observations from a re-analysis of the deposited data

Results flagged for a closer look

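For 24 members the hypoxia response in EHT differed from that in monolayer in the limma test of the difference itself. The values here are the response in EHT minus that in monolayer, in log2 units. Among inhibitors it was -2.40 for TIMP1, -2.41 for TIMP2 and -2.82 for TIMP3. Among MMP genes it was -1.49 for MMP2, -1.16 for MMP14, -1.49 for MMP15, -2.43 for MMP16 and -1.05 for MMP19. Lower responses in EHT were also found for ADAM9 (-1.03), ADAM10 (-0.96), ADAM15 (-1.50), ADAM19 (-2.37), ADAM23 (-1.75), ADAMTS2 (-2.82) and ADAMTS12 (-1.39). Higher responses in EHT were found for ADAM8 (3.39), ADAM11 (3.18), ADAM28 (3.83), ADAM33 (3.59), ADAMTS1 (2.93), ADAMTS4 (3.36), ADAMTS10 (1.29) and ADAMTS20 (2.43). ADAMTS18 was called too (4.97), but EHT had no read of it, so no response in EHT was measured. Its value is the fall in monolayer with the sign changed, and it depends on the pseudocount. The values of ADAM11 and ADAMTS4 rest on few reads in EHT, 3 each in normoxia and 12 and 13 in hypoxia, so the pseudocount weighs on them too. It also weighs on those of ADAM28 and ADAMTS20, which had at most 0.921 and 0.691 CPM in EHT normoxia. The test of ADAM23 was lost without 1 of 5 libraries in turn, and that of MMP15 without the first monolayer hypoxia library (adjusted p = 0.0503).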

How the results depend on the processing

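Of 260 member differences, 129 were called, 95 of these stayed called in the same direction without each library in turn, and 61 under every alternative. Reversed were ADAM17 in EHT against monolayer in normoxia (-0.14 on the deposited values), ADAM10 with hypoxia in monolayer (-0.0096 on the deposited values, -0.20 with scaling by library total) and ADAM17 with hypoxia in monolayer (-0.54 with scaling by library total, adjusted p = 0.012). Members higher in EHT became 7 in normoxia and 9 in hypoxia on the deposited values. With hypoxia in monolayer 6 were higher on the deposited values and 8 with scaling by library total. The number lower there was 7 after centring, 22 with scaling by library total, 7 with the stricter filter, 17 in the compared groups alone and 17 without both EHT libraries numbered 3. With hypoxia in EHT the number lower was 2 on the deposited values, 16 with scaling by library total, 5 with voom weights and 13 without both EHT libraries numbered 3. For the interaction the number lower was 2 on the deposited values. The stricter filter left out ADAM11, ADAMTS4, ADAMTS18 and MMP21, all lower with hypoxia in monolayer, and it ended no call of a member it kept. The cause of the other shifts was not tested.

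Leaving out 1 library gave 13 to 19 higher and 13 to 17 lower for EHT in normoxia, 10 to 17 and 12 to 16 for EHT in hypoxia, 11 to 16 and 6 to 13 for hypoxia in monolayer, 5 to 8 and 5 to 10 for hypoxia in EHT, and 9 to 13 and 13 to 18 for the interaction. The number lower with hypoxia in monolayer was 6 without the second library of either monolayer group and 7 without the third of monolayer hypoxia. The number lower with hypoxia in EHT was 5 without the first EHT normoxia library. With the replicate block hypoxia in EHT gave 7 higher and 10 lower, and 6 and 10 in EHT alone. In the other comparisons the replicate block ended the calls of ADAM9 (EHT in hypoxia, adjusted p = 0.052), ADAM23 (hypoxia in monolayer, 0.054) and ADAMTS2 (EHT in normoxia, 0.058), it added ADAMTS5 and ADAMTS12 in EHT in normoxia (-1.70 and 0.65), and it moved no count by over 1.5 times. Depth limits members with few reads, such as ADAM11, ADAMTS4, ADAMTS18 and MMP21.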

Other observations

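Among members outside the test, MMP25, a membrane-type enzyme known from neutrophils, had 1.66, 1.38 and 0.691 CPM in EHT normoxia and 2.44, 3.07 and 0 in EHT hypoxia, against at most 0.563 in any monolayer library. These values rest on few reads and were not tested.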
